A study of Mus musculus with 24 samples.

Results

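The genes described here are the subunits of the integrins, the chains of the laminins and the proteins that tie laminin networks into basement membrane. They were taken from the deposited table of polyA RNA by symbol: every gene whose symbol starts with Itga, Itgb, Lama, Lamb or Lamc followed by digits or lower-case letters (binding proteins of integrins left out), together with the nidogens Nid1 and Nid2, perlecan (Hspg2) and agrin (Agrn). The rule found 43 of the 23998 genes of the table: 18 alpha integrins, 9 beta integrins, the integrin-like gene Itgbl1, 11 laminin chains and the 4 other basement membrane genes. A mean of 1 FPKM or more over the 13 libraries (FPKM are fragments scaled to transcript length and to the number of mapped fragments) was required for a test, and 33 members met it. Members were chosen by symbol and not by level, but the rule was set with earlier results of these data known.

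RNA came from whole hearts of CD1 mice killed at 4 months of age. All mice carried a transgene for the human regulatory light chain of myosin (RLC, the product of MYL2), which the sample names give as a normal form (wtTg) or a mutant form (mutTg); the genotype field of the labels reads RLC-47K L6 for every sample, wtTg included. The labels do not name the promoter of the transgene. The 3 wtTg hearts (replicates 2, 3 and 4) and 3 mutTg hearts (replicates 1, 2 and 3) had received a control AAV9 virus at 3 days of age through the jugular vein. Of the other mutTg hearts, 3 were untreated (replicates 9, 10 and 11) and 4 had received AAV9 with the M7.8L short hairpin RNA (shRNA) under the H1 promoter and Cerulean under an RSV promoter (replicates 5 to 8). No untreated wtTg heart and no wtTg heart with shRNA was analysed here, so effects of the virus in normal hearts could not be measured.

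Some facts of the libraries touch every result below. A row named hMyl2 was listed at 0 in 10 of 13 libraries, the mutTg hearts without shRNA and the wtTg hearts among them, and at 229 to 420 FPKM in shRNA replicates 5, 6 and 7. The mouse row Myl2 was 21983 to 51823 FPKM in the shRNA hearts, 24318 to 29017 FPKM in wtTg hearts and 10860 to 14425 FPKM in the mutTg hearts without shRNA. Neither row was thus lower in the hearts labelled shRNA, whether hMyl2 measures the transgene was not tested, and "shRNA heart" below means only a heart with that label. Replicate 8 of the shRNA group stood apart: its hMyl2 was 0, and its Nppa (atrial natriuretic peptide, raised in stressed ventricle) was 42676 FPKM beside 1033 to 2315 FPKM in the other shRNA hearts and 17073 to 46679 FPKM in the mutTg hearts without shRNA. By the Y-linked gene Ddx3y, the control-virus mutTg hearts and shRNA replicate 8 came from females, shRNA replicates 5 to 7 from males, and the other groups held both sexes, so that sex and treatment cannot be told apart between control-virus mutTg hearts and shRNA replicates 5 to 7. The ribosomal RNA row Rn45s was listed at 0 in these 4 female libraries and in 2 others. Tnnt2 (cardiac troponin T) was at 4843 to 26534 FPKM over the libraries. The skeletal muscle myosins Myh1, Myh2 and Myh4 were at 0.0863 FPKM or less. Other genes of the skeletal muscle list reached 1.60 (Tnnt3), 4.35 (Tnni2), 118 (Casq1) and 3578 FPKM (Acta1). The liver gene Alb was at 66.3 FPKM in wtTg replicate 3 and 13.4 FPKM in shRNA replicate 6. It was at 0.177 FPKM or less in the mutTg hearts without shRNA. The libraries also differed in scale, the median log2 shift of a library over genes above 0 in every library running from −0.54 (untreated replicate 10) to 0.80 (shRNA replicate 8). Values are as deposited unless called "aligned", which means after every library was divided by its own median shift; the aligned value is printed beside the main differences. Relative depth, read from the smallest steps between low values, ran from 20.4% (shRNA replicate 6) to 100% (untreated replicate 11) of the deepest library, and the 4 shRNA libraries were at 20.4% to 30.9%.

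Integrins are receptors made of 1 alpha and 1 beta subunit that span the cell membrane and link the matrix outside to the cytoskeleton inside. In the cardiomyocyte the main laminin receptor pairs Itga7 with Itgb1 and sits beside the dystroglycan complex, the other laminin receptor of muscle. Laminins are trimers of an alpha, a beta and a gamma chain that polymerise into the sheet of the basement membrane, where nidogens bridge them to the collagen IV network and perlecan and agrin bind both. Other integrins bind fibronectin and vitronectin (Itga5, Itgav), collagens (Itga1, Itga11) or, on leukocytes, partners on other cells (the Itgb2 family).

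RefSeq start sites (mouse build GRCm38.p6, while the deposited table was made with mm9) gave a promoter window for 23 of the 33 tested members. The 250 bases before the start are shown for the 5 genes below because Lamb3 and Itgb6 were the members lower in mutTg hearts, Itgbl1 was among the most raised, and Itgam and Itgax code for alpha partners of the leukocyte subunit Itgb2. Capitals mark matches, on either strand, to the AP-1 motif TGANTCA, the PU.1 core GAGGAA, the TEAD motif GGAATG or the GATA motif AGATAA; none of the marked matches overlap.
Lamb3, chr1:193301744-193301993, plus strand: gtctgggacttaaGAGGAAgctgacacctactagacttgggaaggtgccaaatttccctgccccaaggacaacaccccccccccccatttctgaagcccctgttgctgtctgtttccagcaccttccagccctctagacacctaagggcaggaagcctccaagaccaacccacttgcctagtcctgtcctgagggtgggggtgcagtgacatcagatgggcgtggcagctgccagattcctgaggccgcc
Itgb6, chr2:60722604-60722853, minus strand: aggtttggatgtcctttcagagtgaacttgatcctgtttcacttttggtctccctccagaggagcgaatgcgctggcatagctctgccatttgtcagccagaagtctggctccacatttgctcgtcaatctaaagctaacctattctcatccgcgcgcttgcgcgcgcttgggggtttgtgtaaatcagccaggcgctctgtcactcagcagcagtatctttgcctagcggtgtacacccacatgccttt
Itgbl1, chr14:123659890-123660139, plus strand: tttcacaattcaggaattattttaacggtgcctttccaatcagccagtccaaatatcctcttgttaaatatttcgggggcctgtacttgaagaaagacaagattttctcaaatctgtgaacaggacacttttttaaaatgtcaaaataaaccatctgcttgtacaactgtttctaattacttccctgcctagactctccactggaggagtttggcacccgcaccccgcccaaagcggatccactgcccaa
Itgam, chr7:128062390-128062639, plus strand: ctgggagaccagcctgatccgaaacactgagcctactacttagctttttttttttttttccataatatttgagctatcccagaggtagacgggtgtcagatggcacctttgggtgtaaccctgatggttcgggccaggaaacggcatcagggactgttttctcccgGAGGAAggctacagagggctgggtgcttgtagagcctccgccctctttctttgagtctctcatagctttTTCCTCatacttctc
Itgax, chr7:128129300-128129549, plus strand: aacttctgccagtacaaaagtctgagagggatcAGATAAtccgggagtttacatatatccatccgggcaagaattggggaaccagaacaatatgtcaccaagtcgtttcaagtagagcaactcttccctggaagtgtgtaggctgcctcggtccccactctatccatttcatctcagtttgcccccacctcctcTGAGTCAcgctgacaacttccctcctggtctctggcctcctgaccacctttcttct

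The GAGGAA core, bound by the myeloid factor PU.1 among others, was found 84 bases (plus strand) and 15 bases (minus strand) before the Itgam start and 237 bases before the Lamb3 start. Itgax held TGANTCA 56 bases and AGATAA 217 bases before its start. No match was found in these windows of Itgb6 and Itgbl1. Windows at another start site, not printed here, held GAGGAA 35 bases before the Itgb6 start and GGAATG (minus strand) 167 bases before the Lamb3 start. Over the first window of each of the 23 members, GAGGAA was present in 11 (47.8%), beside 23.3% of all 32851 windows of the same length; the carriers included Itgb1, Itga5, Itgav, Itga11, Lama2, Lama5, Lamb1, Lamb2 and Nid1 besides the leukocyte gene Itgam. TGANTCA was present in 4.3% of the members and 6.7% of all windows, GGAATG in 8.7% and 12.6%, and AGATAA in 4.3% and 10.0%. A match describes the letters only, and no binding was measured.

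In wtTg hearts the members ranged from 0 to 285 ± 32.4 FPKM (Itgb1; SD, n = 3), and since FPKM are per length these levels can be set beside each other. After Itgb1 the most abundant were Lamb2 at 203 ± 17.0, Itga7 at 126 ± 11.6, Hspg2 at 110.5 ± 9.60, Itgb5 at 88.2 ± 9.83, Lamc1 at 83.4 ± 7.62 and Nid1 at 74.4 ± 13.6 FPKM. In this order the library ranges of Itga7 and Hspg2 overlapped, as did those of Itgb5, Lamc1 and Nid1, while Itgb1 and Lamb2 each stood above the next. Of the summed FPKM of alpha integrins, Itga7 made up 44.5% ± 0.0350 (SD, n = 3) and Itga9 19.0% ± 2.64; Itgb1 made up 71.9% ± 2.16 of the beta integrins. Lama2 and Lama4 were the leading laminin alpha chains with 43.4% ± 1.25 and 34.4% ± 1.92, and Lamb2 held 75.8% ± 0.445 of the beta chains. The chains of the main heart laminins (Lama2 or Lama4, Lamb1 or Lamb2, with Lamc1) were thus the ones measured highest.

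Mutant hearts with control virus were set against wtTg hearts with control virus to measure the mutant state with the virus held the same. As deposited, 4 of 33 members passed (limma, Benjamini-Hochberg adjusted p under 0.05 over 12980 genes), 2 higher and 2 lower. Itgbl1 rose, and Lamb3 and Itgb6 fell. Among all genes 9.5% passed, 2.15% higher and 7.35% lower. Aligned, 15 members rose and 2 fell, where 12.6% and 11.7% of all genes did (24.3% in all). The 15 included 7 alpha integrins (Itga3, Itga4, Itga5, Itga11, Itgae, Itgal, Itgam), 5 beta integrins (Itgb1, Itgb2, Itgb3, Itgb5, Itgb7), Itgbl1 and Lamc1. Itga4, Itgae, Itgal, Itgax and Itgb7 had wtTg means under 1 FPKM (0.357 to 0.987 FPKM). They met the test minimum through other groups, so their passes as higher are not independent of that filter. The filter over all 13 libraries was also kept where shRNA replicate 8 was left out. The median log2 difference of the members was 0.28 as deposited beside −0.14 over all tested genes, and 0.43 beside −0.0056 aligned. In 14 members every mutTg library was above every wtTg library and in 5 (Itga7, Itgb6, Lama2, Lama5, Lamb3) every one was below, while among all genes 13.6% and 28.5% separated in this way. With shRNA replicate 8 left out of the shared spread, 13 members rose and 2 fell as deposited, where 8.49% of all genes rose and 12.7% fell. The count was 0 without wtTg replicate 2, 0 without mutTg replicate 1, 1 without wtTg replicate 3, wtTg replicate 4 or mutTg replicate 3, 2 without mutTg replicate 2, and 0 with sex as a covariate. Aligned, 4 (without wtTg replicate 2) to 10 members passed with any 1 library of the compared groups left out. No share of all genes is given with 1 of these libraries left out or with sex as a covariate. Whether members differed from other genes there was not tested. Aligned without shRNA replicate 8, 22 members passed, where 19.8% of all genes rose and 19.8% fell.

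Untreated mutTg hearts were also set against the same wtTg hearts; here virus and genotype differ together. As deposited 2 members rose, Itgbl1 among them, and Lamb3 and Itgb6 fell, where 1.54% of all genes rose and 19.2% fell. Aligned, 14 members rose and 2 fell, beside 12% and 13.8% of all genes. With any 1 library of the compared groups left out, 4 (without wtTg replicate 2) to 12 members passed aligned. No share of all genes is given for the latter counts, so whether members differed from other genes there was not tested. Every untreated mutTg library was above every wtTg library in 11 members and below in 4, beside 8.31% and 40.6% of all genes. Without shRNA replicate 8, 7 members rose and 2 fell as deposited, beside 5.22% and 25.8% of all genes. Both comparisons share the wtTg hearts, so they are not independent.

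The shRNA hearts were set against the mutTg hearts with control virus, the comparison that holds genotype and virus capsid the same. As deposited, 7 members rose (Itga6, Itga7, Itgb6, Lama5, Lamb1, Lamb3, Nid2) and 1 fell, in a comparison in which 35% of all genes passed, 33.4% higher and 1.66% lower. All shRNA libraries were above all control-virus libraries in 8 members and below in 0, beside 30.7% and 0.455% of all genes. The median member differed by 0.094 on the log2 scale and the median gene by 0.47. Aligned, 0 members rose and 13 fell (among them Itga3, Itga4, Itga5, Itga9, Itga11, Itgae, Itgam, Itgb2, Itgb3, Itgb5, Itgb7 and Lamc1), beside 11.9% and 12.2% of all genes, with a median of −0.41 for members and 0.0046 for all genes. Without shRNA replicate 8 the counts were 4 higher and 12 lower as deposited (30.4% and 8.94% of all genes), and 3 higher (Itgb6, Lamb1, Lamb3) and 19 lower aligned (24.2% and 23.9% of all genes). As deposited 2 members passed without control-virus replicate 3, 3 without shRNA replicate 7, 4 without control-virus replicate 1 or shRNA replicate 6, 5 without control-virus replicate 2, and 4 with sex as a covariate. Aligned, 4 to 6 passed with any 1 library of the compared groups other than shRNA replicate 8 left out. Against untreated mutTg hearts, 10 members rose and 1 fell as deposited, where 54.8% of all genes passed, 53.6% higher and 1.21% lower. Aligned, Lamb3 rose and 14 members fell, where 29.1% of all genes passed, 16% higher and 13.1% lower; 8 to 10 passed with any 1 library other than shRNA replicate 8 left out, and as deposited 5 passed without untreated replicate 10. The groups did not overlap for 6 members, all higher with shRNA, beside 42.7% of all genes higher and 0.385% lower. Both shRNA comparisons share the shRNA hearts. No share of all genes is given above with sex as a covariate, or with a library other than shRNA replicate 8 left out. Whether members differed from other genes in those settings was not tested.

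**Figure D1:**
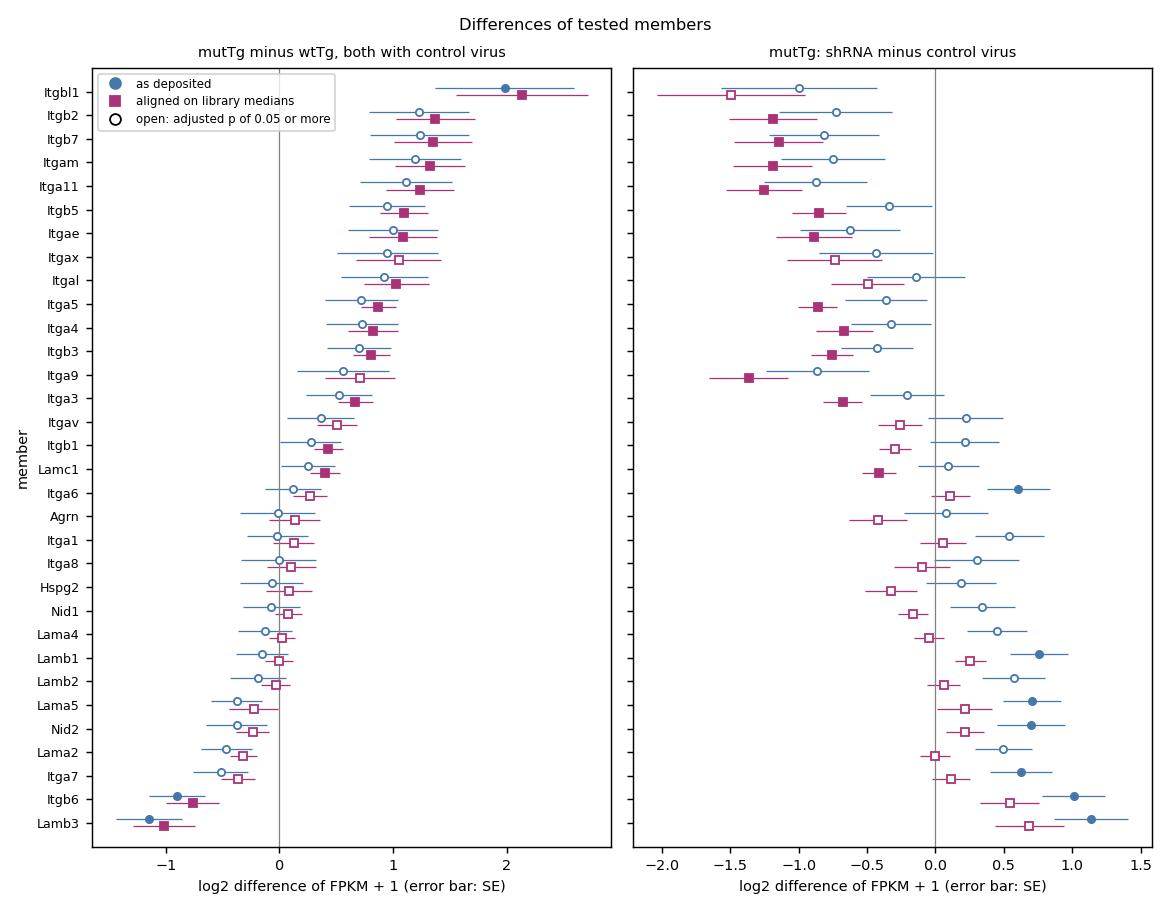
Log2 difference of FPKM + 1 with its standard error for tested members, for mutTg minus wtTg hearts with control virus (left) and shRNA minus control virus in mutTg hearts (right), as deposited (circles) and aligned (squares), filled where the adjusted p was under 0.05. Members at the top on the left (Itgbl1, the leukocyte integrins) lie to the left of 0 on the right, and Lamb3 and Itgb6 at the bottom lie to the right of 0.

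Among the laminins, Lamb3 fell in both groups of mutTg hearts without shRNA. Lamb3 is the beta chain of an epithelial laminin. Its levels were 11.7, 12.01 and 11.3 FPKM in wtTg hearts, 4.68, 4.71 and 4.78 FPKM in control-virus mutTg hearts and 4.39, 1.78 and 2.78 FPKM in untreated hearts. With shRNA, Lamb3 was at 9.16, 18.6 and 12.6 FPKM in replicates 5 to 7 and 8.35 FPKM in replicate 8. Every mutTg heart without shRNA lay below every wtTg and every shRNA heart, replicate 8 included, as deposited. Aligned, Lamb3 in replicate 8 was 4.81 FPKM, inside the range of the mutTg hearts without shRNA (2.58 to 6.05 FPKM), while replicates 5 to 7 (9.93 to 12.9 FPKM) stayed above them. The log2 difference was -1.15 (SE 0.29, limma adjusted p = 0.0213; aligned -1.02, 0.0229) with control virus and -1.72 (adjusted p = 0.0015; aligned -1.44, 0.0074) without virus. In shRNA hearts Lamb3 was 2.203-fold higher than with control virus (limma adjusted p = 0.0050), a rise that did not pass aligned (1.61-fold, adjusted p = 0.0644) and did pass aligned without replicate 8 (1.92-fold, adjusted p = 6.8e-04). In bulk tissue, fewer cells of a type and less RNA per cell cannot be told apart, here or in any difference below. The partner chain Lama3 ranged from 0.543 to 1.50 FPKM over the 13 libraries, and its mean of 0.865 FPKM was under the test minimum.

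None of the abundant laminin chains passed against wtTg hearts as deposited. Lama2, the alpha chain of the muscle laminin whose loss causes congenital muscular dystrophy, was at 49.0, 53.0 and 46.4 FPKM in wtTg hearts, 37.1, 36.0 and 33.3 FPKM with control virus and 58.0, 39.3 and 43.1 FPKM in untreated hearts. With shRNA, Lama2 was at 39.9, 54.6 and 48.3 FPKM in replicates 5 to 7 and 61.6 FPKM in replicate 8. Control-virus mutTg hearts all lay below wtTg hearts, but with all libraries the difference of -0.47 did not pass (limma adjusted p = 0.20). Aligned without shRNA replicate 8 the difference passed (log2 -0.32, limma adjusted p = 0.0384). Untreated hearts overlapped the wtTg range as deposited. Aligned, Lama2 passed as lower with shRNA than in untreated hearts. Lama4, the alpha chain of vessel walls, was at 35.9, 41.5 and 40.3 FPKM in wtTg hearts, 39.0, 40.0 and 29.2 FPKM with control virus and 39.3, 28.7 and 33.1 FPKM in untreated hearts. With shRNA, Lama4 was at 38.6, 45.4 and 50.6 FPKM in replicates 5 to 7 and 65.8 FPKM in replicate 8. It passed only against untreated hearts (1.46-fold higher with shRNA, adjusted p = 0.0458), and the aligned difference had the other sign (log2 -0.18). Lama5, found in mature vessels and epithelia, was at 24.1, 26.4 and 22.6 FPKM in wtTg hearts, 20.3, 16.1 and 19.4 FPKM with control virus and 23.1, 14.2 and 18.3 FPKM in untreated hearts. With shRNA, Lama5 was at 27.0, 35.2 and 33.6 FPKM in replicates 5 to 7 and 28.4 FPKM in replicate 8. All 4 shRNA hearts exceeded all 6 mutTg hearts without shRNA in Lama5 (1.63-fold against control virus, limma adjusted p = 0.0168; aligned 1.16-fold, 0.45), but aligned replicate 8 (16.4 FPKM) lay among those 6 (14.7 to 25.3 FPKM). Summed markers of endothelium (12 genes, none at 0) were 755 to 862 FPKM in wtTg hearts, 500.4 to 676 FPKM with control virus, 474 to 597 FPKM untreated and 791 to 1368 FPKM with shRNA. Aligned, the endothelial sums were 806 to 819.6, 618 to 727, 629.6 to 817 and 788 to 868 FPKM in the same order. Those of pericytes (6 genes, none at 0) were 371 to 446, 178 to 235, 199.7 to 245 and 528 to 700.0 FPKM. Aligned, the pericyte sums were 397 to 417, 214.9 to 266 and 259 to 334 FPKM in the groups without shRNA, 469.6 to 572 FPKM in shRNA replicates 5 to 7 and 307 FPKM in replicate 8. With shRNA against control virus 8 of the 12 and 5 of the 6 rose (5 and 4 aligned), where 33.4% of all genes did (11.9% aligned). Aligned, 1 pericyte gene and 0 endothelial genes fell. Of the pericyte genes, Rgs5 and Abcc9 reached the highest levels (330 and 255 FPKM) and can thus weigh heavily in that sum. Whether the listed genes were expressed in pericytes alone was not tested. The part of both marker lists in the levels of Lama4, Lama5, Lamb1 and Itga6 was not tested.

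Of the common beta and gamma chains, Lamb2, enriched at neuromuscular and vascular basement membranes, was at 184, 209 and 216 FPKM in wtTg hearts, 169, 192 and 171 FPKM with control virus and 206, 120.3 and 176 FPKM in untreated hearts. With shRNA, Lamb2 was at 204, 274 and 259 FPKM in replicates 5 to 7 and 337 FPKM in replicate 8. Its rise of 1.61-fold against untreated hearts (limma adjusted p = 0.0187) was -0.05 on the log2 scale when aligned, the other direction. Lamb1, the more widely expressed beta chain, was at 46.3, 56.7 and 56.7 FPKM in wtTg hearts, 51.9, 47.2 and 43.8 FPKM with control virus and 55.0, 36.8 and 42.9 FPKM in untreated hearts. With shRNA, Lamb1 was at 63.0, 87.0 and 80.6 FPKM in replicates 5 to 7 and 97.4 FPKM in replicate 8. As deposited it was higher in all shRNA hearts than in all other mutTg hearts, and aligned this held for replicates 5 to 7 but not for replicate 8 (1.69-fold against control virus, limma adjusted p = 0.0128; aligned 1.19-fold, 0.11; aligned without replicate 8 1.23-fold, 0.0403). Lamc1, the gamma chain of most laminins, was at 77.8, 92.1 and 80.3 FPKM in wtTg hearts, 98.7, 113 and 87.2 FPKM with control virus and 116, 79.8 and 89.1 FPKM in untreated hearts. With shRNA, Lamc1 was at 84.4, 91.5 and 115 FPKM in replicates 5 to 7 and 140.4 FPKM in replicate 8. These groups overlapped, and Lamc1 passed only aligned, where it was 1.32-fold higher in control-virus mutTg than in wtTg hearts (adjusted p = 0.0438) and 1.33-fold lower with shRNA (adjusted p = 0.0325).

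**Figure D2:**
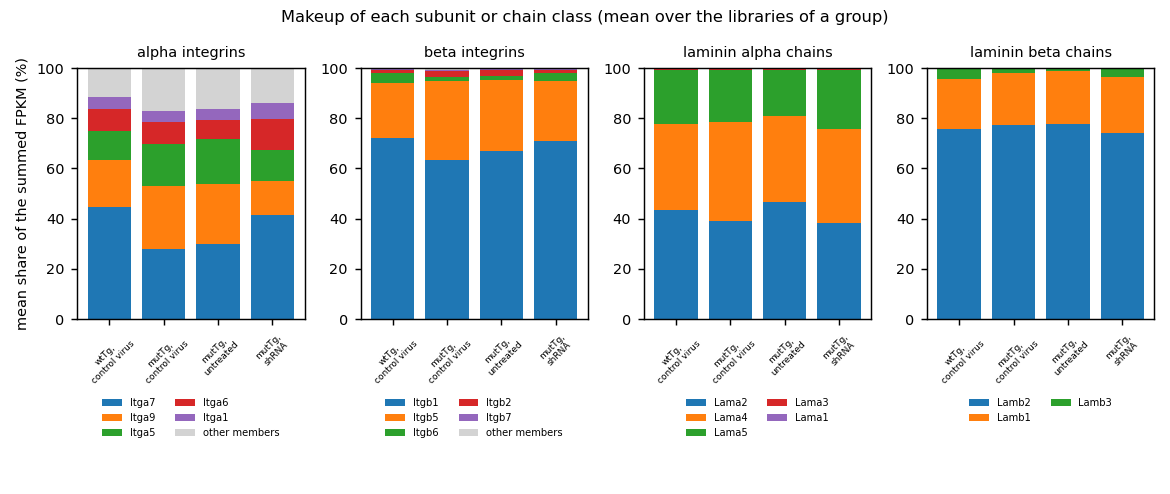
Mean share of each gene in the summed FPKM of its class (percent, stacked to 100) in the 4 groups, for alpha integrins, beta integrins and the laminin alpha and beta chains. Itga7 takes a smaller part of the alpha integrins in mutTg hearts without shRNA (27.9% and 29.8%) than in wtTg hearts (44.5%).

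Itga7 and Itgb1 are the subunits of the cardiomyocyte laminin receptor. Itga7 was at 113, 135 and 131 FPKM in wtTg hearts, 78.9, 99.3 and 86.1 FPKM with control virus and 116, 65.2 and 81.2 FPKM in untreated hearts. With shRNA, Itga7 was at 111, 168 and 129 FPKM in replicates 5 to 7 and 141 FPKM in replicate 8. All control-virus mutTg hearts were below all wtTg and, as deposited, all shRNA hearts (aligned, replicate 8 was 81.1 FPKM, below all control-virus hearts), while untreated replicate 9 reached into the wtTg range. With all libraries the difference of control-virus mutTg from wtTg hearts did not pass (log2 -0.52, limma adjusted p = 0.19, and aligned -0.36, 0.0912). It passed aligned without shRNA replicate 8 (log2 -0.36, limma adjusted p = 0.0202). The rise with shRNA passed as deposited (1.54-fold, adjusted p = 0.0417) but not aligned (1.08-fold, adjusted p = 0.57). Summed cardiomyocyte markers were at 103066 to 118588 FPKM in wtTg hearts, 58782 to 77159 FPKM with control virus, 48247 to 66161 FPKM untreated and 114227 to 216121 FPKM with shRNA over 8 genes, none at 0. Aligned, they were 109623 to 110887 FPKM in wtTg hearts, 67101 to 74350.1 FPKM with control virus, 69103 to 70021 FPKM untreated, 127491 to 150754 FPKM in shRNA replicates 5 to 7 and 65784 FPKM in replicate 8. Their part in the result was not tested. Itgb1, the shared beta subunit of many integrins, was at 257, 321 and 278 FPKM in wtTg hearts, 329.7, 427 and 289 FPKM with control virus and 323, 303 and 258 FPKM in untreated hearts. With shRNA, Itgb1 was at 281, 409 and 365 FPKM in replicates 5 to 7 and 610.0 FPKM in replicate 8. The groups overlapped as deposited, and aligned Itgb1 was 1.35-fold higher in control-virus mutTg than in wtTg hearts (limma adjusted p = 0.0317).

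The other laminin-binding alpha subunits are Itga6, found on endothelium and epithelium, and Itga3. Itga6 was at 23.6, 25.4 and 26.1 FPKM in wtTg hearts, 32.6, 30.1 and 20.7 FPKM with control virus and 21.7, 22.2 and 21.2 FPKM in untreated hearts. With shRNA, Itga6 was at 32.5, 40.6 and 39.6 FPKM in replicates 5 to 7 and 59.7 FPKM in replicate 8. With shRNA it was 1.52-fold above control virus (limma adjusted p = 0.0468) and 1.90-fold above no virus (adjusted p = 0.0032), and neither difference passed aligned (0.59 and 0.28). Itga3 ran from 7.001 to 18.9 FPKM over all libraries, with all control-virus mutTg hearts (10.9 to 14.4 FPKM) above all wtTg hearts (7.79 to 8.99 FPKM), and it passed aligned (log2 0.67, adjusted p = 0.0144).

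Of the collagen receptors, Itga11, a fibroblast subunit for fibrillar collagen, was at 1.25, 1.83 and 2.08 FPKM in wtTg hearts, 5.78, 6.05 and 3.15 FPKM with control virus and 5.94, 2.57 and 4.66 FPKM in untreated hearts. With shRNA, Itga11 was at 0.970, 2.01 and 1.39 FPKM in replicates 5 to 7 and 6.23 FPKM in replicate 8. All 6 mutTg hearts without shRNA were above all wtTg hearts, with 2.16-fold for control virus (limma adjusted p = 0.0865; aligned 2.35-fold, 0.0169). It was lower with shRNA only aligned or without replicate 8 (aligned 2.39-fold, adjusted p = 0.0159; as deposited without replicate 8 2.41-fold, 6.8e-04). Itga1, which prefers collagen IV, was at 14.3, 12.5 and 14.9 FPKM in wtTg hearts, 14.7, 15.0 and 11.6 FPKM with control virus and 14.4, 12.6 and 11.97 FPKM in untreated hearts. With shRNA, Itga1 was at 16.4, 16.1 and 18.0 FPKM in replicates 5 to 7 and 35.4 FPKM in replicate 8. Its pass against untreated hearts (1.53-fold, adjusted p = 0.0480) changed direction when aligned (log2 -0.09).

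Of the receptors for fibronectin and vitronectin, Itga5 and Itgb5 rose in both groups of mutTg hearts without shRNA once libraries were aligned. Itga5, the fibronectin receptor subunit, was at 29.4, 29.6 and 36.4 FPKM in wtTg hearts, 50.6, 70.7 and 41.0 FPKM with control virus and 68.7, 44.1 and 43.2 FPKM in untreated hearts. With shRNA, Itga5 was at 24.9, 42.9 and 36.2 FPKM in replicates 5 to 7 and 71.6 FPKM in replicate 8. Every mutTg heart without shRNA exceeded every wtTg heart (1.65-fold with control virus, limma adjusted p = 0.16; aligned 1.83-fold, 0.0072), and with shRNA Itga5 was 1.82-fold lower aligned (adjusted p = 0.0084). The ratio of Itga5 to Itga7 within a library, which the scale of the library cannot change, was computed after the values had been seen and is given as a description. It was 0.220 to 0.278 in wtTg hearts, 0.476 to 0.712 in the 6 mutTg hearts without shRNA, 0.225 to 0.281 in shRNA replicates 5 to 7 and 0.508 in replicate 8. Itgb5, the beta subunit of a vitronectin receptor, was at 76.9, 93.2 and 94.6 FPKM in wtTg hearts, 177, 187 and 149 FPKM with control virus and 139, 103 and 129.7 FPKM in untreated hearts. With shRNA, Itgb5 was at 81.3, 127 and 109 FPKM in replicates 5 to 7 and 289 FPKM in replicate 8. It too separated the mutTg hearts without shRNA from the wtTg hearts (1.93-fold with control virus, limma adjusted p = 0.0816; aligned 2.14-fold, 0.0085), and its share of the beta integrins was 22.3% ± 1.19 in wtTg hearts, 31.5% ± 2.33 with control virus and 28.3% ± 3.79 untreated (SD, n = 3 each). Itgav, its alpha partner, was at 10.8, 11.2 and 11.5 FPKM in wtTg hearts, 17.3, 17.7 and 10.2 FPKM with control virus and 16.5, 15.9 and 12.5 FPKM in untreated hearts. With shRNA, Itgav was at 11.7, 16.6 and 15.2 FPKM in replicates 5 to 7 and 29.7 FPKM in replicate 8. With all libraries Itgav passed by limma only aligned and only for untreated against wtTg hearts (1.68-fold, adjusted p = 0.0145) and shRNA against untreated hearts (1.42-fold lower, 0.0364). Aligned and without replicate 8, Itgav also passed for control-virus mutTg against wtTg hearts (1.42-fold, limma adjusted p = 0.0154). In that setting it passed as lower with shRNA than with control virus too.

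Itgb6, the epithelial partner of Itgav that releases active TGF-beta, went against Itgb5. It was at 13.6, 13.1 and 17.8 FPKM in wtTg hearts, 7.43, 7.60 and 7.22 FPKM with control virus and 8.87, 5.98 and 4.93 FPKM in untreated hearts. With shRNA, Itgb6 was at 16.0, 21.3 and 13.9 FPKM in replicates 5 to 7 and 13.6 FPKM in replicate 8. All 6 mutTg hearts without shRNA lay below all wtTg and all shRNA hearts as deposited. Aligned, replicate 8 was 7.85 FPKM, inside their range of 6.82 to 9.36 FPKM, and replicates 5 to 7 (11.1 to 17.4 FPKM) stayed above it. The log2 differences were -0.90 (SE 0.25, limma adjusted p = 0.0310; aligned -0.76, 0.0348) with control virus and -1.08 (adjusted p = 0.0063; aligned -0.75, 0.0351) untreated, and Itgb6 was 2.02-fold higher with shRNA than with control virus (adjusted p = 0.0040; aligned 1.46-fold, 0.0827; aligned without replicate 8 1.66-fold, 0.0034). Its ratio to Itgb5 within a library, also chosen after seeing the values, was 0.177, 0.141 and 0.188 in wtTg hearts, 0.0419, 0.0407 and 0.0486 with control virus and 0.0637, 0.0581 and 0.0380 untreated. In shRNA replicates 5 to 7 the ratio was 0.197, 0.169 and 0.128, and in replicate 8 it was 0.0472, inside the range of the mutTg hearts without shRNA. Within males it was 0.141 and 0.177 in wtTg hearts and 0.0581 and 0.0637 in untreated mutTg hearts, and within females 0.188 in the wtTg heart and 0.0380 to 0.0486 in the 4 mutTg hearts without shRNA. As the ratio was chosen after seeing the values and the groups within a sex are this small, these values do not test the part of sex. Itga8, another receptor subunit for this class of ligands, was at 2.06, 2.79 and 3.90 FPKM in wtTg hearts, 3.43, 3.31 and 1.93 FPKM with control virus and 4.34, 3.08 and 2.68 FPKM in untreated hearts. With shRNA, Itga8 was at 2.05, 3.01 and 3.90 FPKM in replicates 5 to 7 and 7.24 FPKM in replicate 8. Its groups overlapped, and with all libraries it passed in none of the 6 comparisons. Aligned and without replicate 8 it was 1.51-fold lower with shRNA than in untreated hearts (limma adjusted p = 0.0161).

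**Figure D3:**
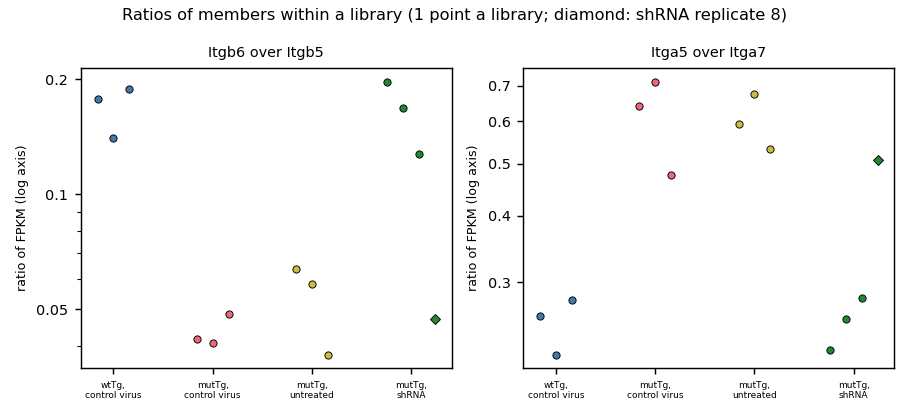
Ratio of the FPKM of 2 members within each library on log axes, with 1 point a library and shRNA replicate 8 as a diamond: Itgb6 over Itgb5 and Itga5 over Itga7. Replicates 5 to 7 of the shRNA group overlap the wtTg hearts in both panels, while replicate 8 lies apart from them.

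**Figure D4:**
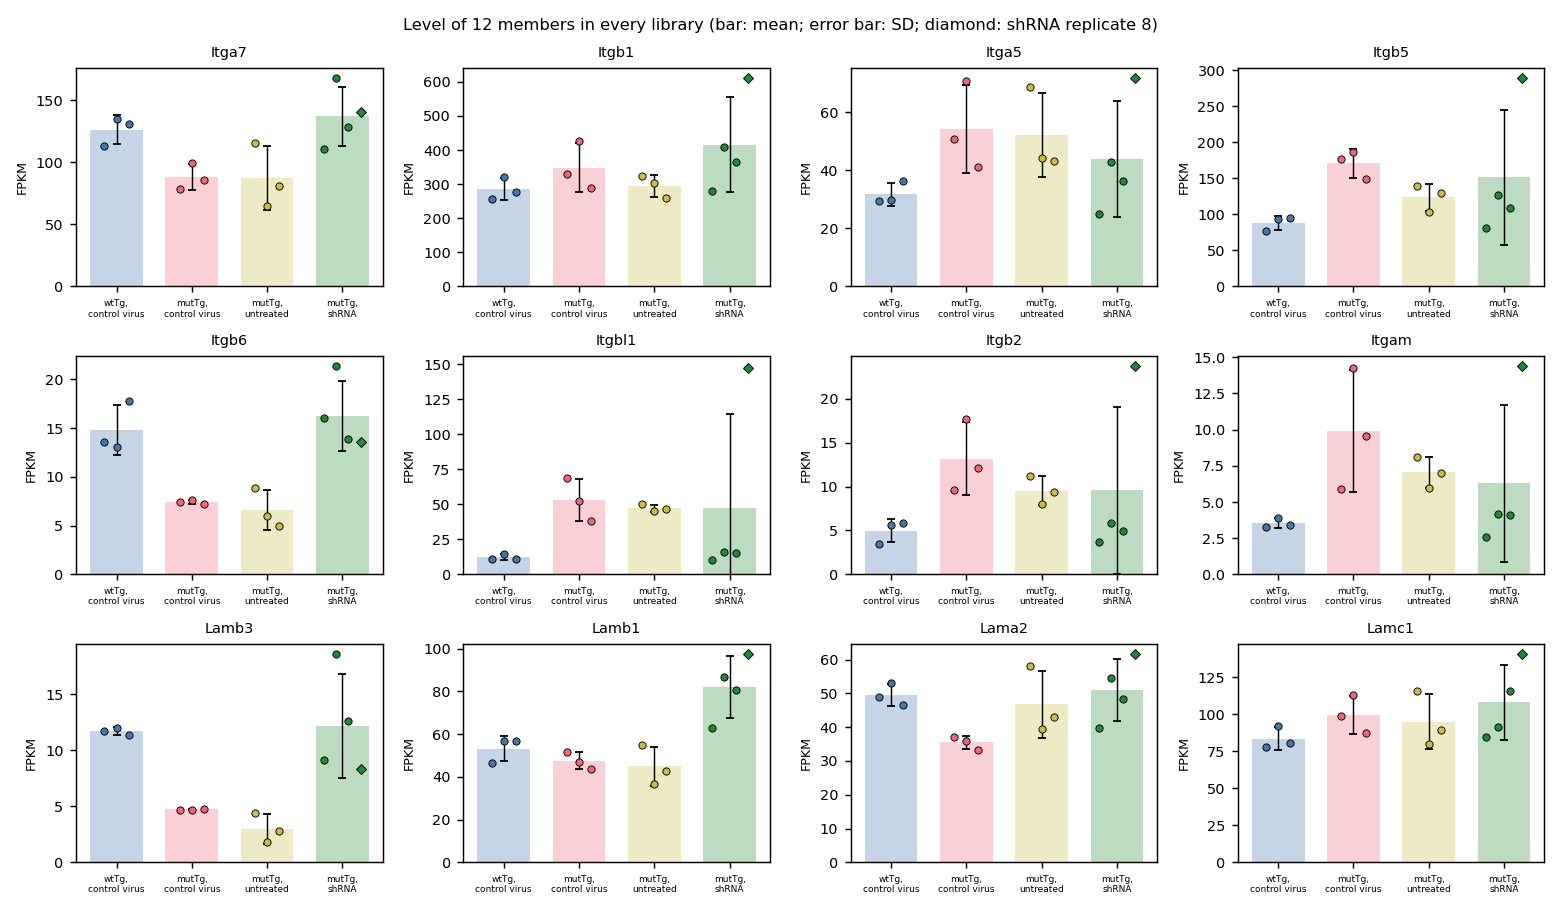
FPKM of 12 members in every library (points), with the group mean (bar) and SD (error bar) and shRNA replicate 8 as a diamond. Itgbl1 is high in the 6 mutTg hearts without shRNA and in replicate 8, while Lamb3 and Itgb6 are low in those 6 hearts.

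Itgbl1, a secreted protein with integrin-like repeats, had the largest fold among the tested members in control-virus mutTg hearts. It was at 11.3, 14.6 and 11.4 FPKM in wtTg hearts, 68.6, 52.3 and 38.2 FPKM with control virus and 50.1, 45.3 and 46.4 FPKM in untreated hearts. With shRNA, Itgbl1 was at 10.6, 16.3 and 15.1 FPKM in replicates 5 to 7 and 148 FPKM in replicate 8. The means were 53.0 ± 15.2 against 12.4 ± 1.88 FPKM (SD, n = 3 each), 3.95-fold, with a limma adjusted p of 0.0498 (aligned 4.38-fold, 0.0244; as deposited without shRNA replicate 8, 1.6e-06). Against control virus the shRNA hearts did not pass with replicate 8 (2.00-fold lower, adjusted p = 0.17) and did without it (3.56-fold lower, 2.1e-06). Summed fibroblast markers (11 genes, none at 0 in any library) ran from 991 to 1425 FPKM in wtTg hearts, 2474 to 3877 FPKM with control virus, 2070 to 2664 FPKM untreated and 1087 to 4964 FPKM with shRNA, replicate 8 being the highest. Aligned, they were 1061 to 1362, 3129 to 3542, 2811 to 3004 and 1151 to 2859 FPKM, and replicate 8 (2859 FPKM) lay below every control-virus heart. Their part in the levels of Itgbl1 and Itga11 was not tested.

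Itgb2, the beta subunit carried only by leukocytes, was at 3.47, 5.59 and 5.89 FPKM in wtTg hearts, 9.60, 17.7 and 12.2 FPKM with control virus and 11.2, 7.97 and 9.43 FPKM in untreated hearts. With shRNA, Itgb2 was at 3.71, 5.87 and 4.96 FPKM in replicates 5 to 7 and 23.7 FPKM in replicate 8. The 6 mutTg hearts without shRNA were all above the wtTg hearts, with 2.34-fold for control virus (limma adjusted p = 0.0856; aligned 2.58-fold, 0.0195). Itgam, its partner on macrophages and neutrophils (CD11b), was at 3.28, 3.92 and 3.43 FPKM in wtTg hearts, 5.90, 14.3 and 9.54 FPKM with control virus and 8.11, 5.99 and 7.04 FPKM in untreated hearts. With shRNA, Itgam was at 2.56, 4.18 and 4.10 FPKM in replicates 5 to 7 and 14.4 FPKM in replicate 8. It separated in the same way (2.28-fold, adjusted p = 0.0724; aligned 2.504-fold, 0.0153). Without replicate 8, Itgb2 was 2.38-fold lower (limma adjusted p = 3.2e-04) and Itgam 2.28-fold lower (7.5e-04) with shRNA than with control virus; with it neither passed as deposited (0.17 and 0.13), and both passed aligned (0.0255 and 0.0199).

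The lymphocyte partner Itgal (CD11a) was at 0.465, 1.02 and 0.639 FPKM in wtTg hearts, 2.18, 2.29 and 2.14 FPKM with control virus and 1.73, 0.980 and 1.34 FPKM in untreated hearts. With shRNA, Itgal was at 0.955, 1.83 and 0.888 FPKM in replicates 5 to 7 and 5.82 FPKM in replicate 8. Itgax (CD11c), a dendritic cell and macrophage subunit, was at 0.288, 0.310 and 0.601 FPKM in wtTg hearts, 1.33, 1.63 and 2.16 FPKM with control virus and 1.18, 1.10 and 1.17 FPKM in untreated hearts. With shRNA, Itgax was at 0.219, 0.664 and 0.275 FPKM in replicates 5 to 7 and 5.06 FPKM in replicate 8. Itgal passed aligned in control-virus mutTg hearts (2.04-fold, limma adjusted p = 0.0258) and Itgax did not (2.07-fold, 0.0581). The gut-homing subunits Itgae and Itgb7 and the lymphocyte and monocyte subunit Itga4 stayed at 5.70 FPKM or less in every library, and all 3 passed aligned in that comparison. Itgae and Itgax met the test minimum narrowly, with means of 1.02 and 1.23 FPKM over all libraries. The highest library of each was shRNA replicate 8 (3.16 and 5.06 FPKM). Summed over 18 leukocyte and macrophage markers, wtTg hearts had 627 to 706 FPKM, control-virus mutTg hearts 1490 to 2783 FPKM, untreated hearts 1157 to 1502 FPKM and shRNA hearts 506 to 3974 FPKM, the highest being replicate 8. Aligned, the sums were 638 to 674, 1697 to 2542, 1585 to 2071 and 529 to 2289 FPKM, with replicate 8 (2289 FPKM) inside the control-virus range. In control-virus mutTg hearts 5 of the 18 markers rose and 1 (Cd163) fell as deposited, and 13 rose and 1 fell aligned, where 2.15% of all genes rose and 7.35% fell as deposited and 12.6% and 11.7% aligned. Ptprc, which marks all leukocytes, was above 0 in every library, the T cell gene Cd3e was listed at 0 in 1 library, and the part of leukocyte content in these integrin levels was not tested.

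**Figure D5:**
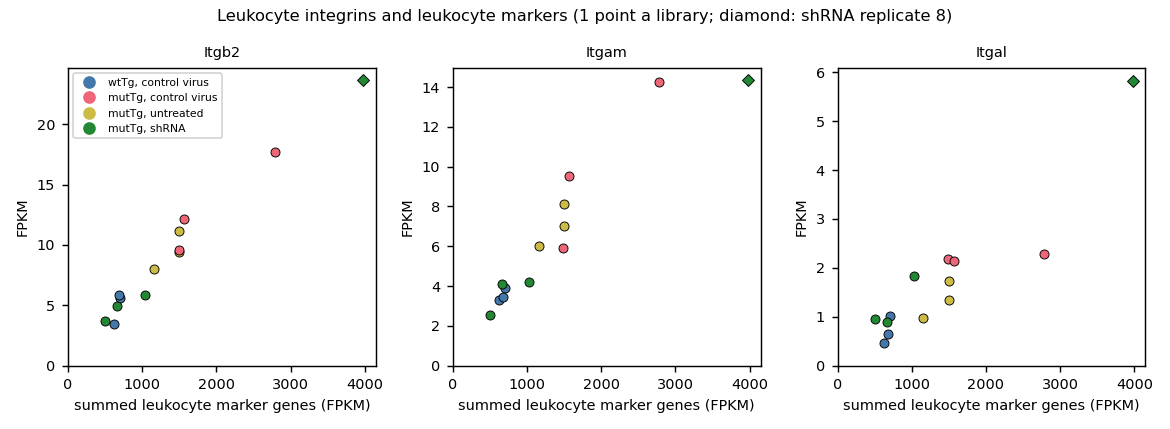
FPKM of Itgb2, Itgam and Itgal (vertical axes) against the summed FPKM of 18 leukocyte and macrophage marker genes (horizontal axes), 1 point a library, shRNA replicate 8 as a diamond. The wtTg hearts (627 to 706 FPKM of markers) and shRNA replicates 5 to 7 lie at the lower left and replicate 8 at the upper right.

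Itga9, a receptor for tenascin-C, osteopontin and other ligands, was the second most abundant alpha integrin of wtTg hearts. It was at 44.5, 66.6 and 51.1 FPKM in wtTg hearts, 84.9, 90.5 and 64.0 FPKM with control virus and 80.4, 71.7 and 55.8 FPKM in untreated hearts. With shRNA, Itga9 was at 25.4, 36.6 and 30.5 FPKM in replicates 5 to 7 and 119 FPKM in replicate 8. Replicates 5 to 7 lay below every library of the other groups, wtTg included. Against control virus the lower level with shRNA did not pass as deposited (1.82-fold, limma adjusted p = 0.0823) and passed aligned (2.58-fold, 0.0145) or without replicate 8 (2.54-fold, 9.4e-05). Against wtTg hearts Itga9 was the 1 member that passed once libraries were aligned and replicate 8 was left out (2.00-fold lower, adjusted p = 0.0016); as deposited without replicate 8 it was 1.73-fold lower (adjusted p = 0.0995).

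Nid1, a nidogen that joins laminin to collagen IV, was at 66.4, 90.1 and 66.6 FPKM in wtTg hearts, 66.1, 84.6 and 61.0 FPKM with control virus and 93.3, 74.5 and 71.2 FPKM in untreated hearts. With shRNA, Nid1 was at 65.4, 86.4 and 89.5 FPKM in replicates 5 to 7 and 124 FPKM in replicate 8. Nid2, its relative, was at 11.9, 13.4 and 15.4 FPKM in wtTg hearts, 12.2, 10.2 and 8.42 FPKM with control virus and 11.1, 7.31 and 9.71 FPKM in untreated hearts. With shRNA, Nid2 was at 10.7, 20.4 and 17.9 FPKM in replicates 5 to 7 and 21.7 FPKM in replicate 8. Nid2 was higher with shRNA than with control virus as deposited (1.62-fold, limma adjusted p = 0.0395) and not aligned (1.16-fold, 0.25), and Nid1 passed only aligned, for untreated against wtTg hearts (1.40-fold, 0.0176) and shRNA against untreated hearts (1.48-fold lower, 0.0064). Hspg2 (perlecan), a large heparan sulfate proteoglycan, was at 104, 122 and 106 FPKM in wtTg hearts, 115, 94.4 and 106 FPKM with control virus and 130.1, 69.1 and 114 FPKM in untreated hearts. With shRNA, Hspg2 was at 90.7, 104 and 122 FPKM in replicates 5 to 7 and 178 FPKM in replicate 8. Agrn (agrin), which links laminin to dystroglycan, was at 36.4, 38.5 and 41.0 FPKM in wtTg hearts, 46.3, 35.3 and 33.9 FPKM with control virus and 38.8, 24.4 and 37.2 FPKM in untreated hearts. With shRNA, Agrn was at 24.5, 36.9 and 35.4 FPKM in replicates 5 to 7 and 81.9 FPKM in replicate 8. With all libraries Hspg2 and Agrn passed in none of the 6 comparisons, as deposited or aligned. Aligned and without replicate 8, Agrn was 1.54-fold lower with shRNA than with control virus (limma adjusted p = 0.0067) and 1.55-fold lower than in untreated hearts (0.0058), and Hspg2 was 1.46-fold lower than in untreated hearts (adjusted p = 0.0341). Their groups overlapped in the comparisons of control-virus mutTg hearts with wtTg hearts and with shRNA hearts.

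Genes of the wider pathway were taken as lists that hold no member. Their counts against wtTg hearts stand beside 2.15% of all genes higher and 7.35% lower as deposited, and 12.6% and 11.7% aligned. In control-virus mutTg against wtTg hearts, 8 of 16 tested extracellular ligands of integrins rose and 2 fell (10 and 1 aligned): Ctgf, a matricellular protein, was 893 ± 299 against 85.7 ± 31.2 FPKM (SD, n = 3 each; limma adjusted p = 0.0090), Thbs1 (thrombospondin) was 21.1 ± 6.23 against 2.68 ± 0.588 FPKM (adjusted p = 0.0045) and Vtn (vitronectin) was 8.94 ± 1.63 against 23.1 ± 5.68 FPKM (adjusted p = 0.0139). Of 11 basement membrane collagens 3 rose (9 aligned) and 0 fell, Col15a1 with 88.8 ± 9.27 against 32.8 ± 7.14 FPKM (limma adjusted p = 0.0264). Of 11 other basement membrane genes, 0 rose and Egflam (pikachurin, a dystroglycan ligand) fell by 1.18 on the log2 scale (aligned by 1.05; 5 genes rose and 1 fell aligned). Inside the cell, 0 of 11 genes of the talin, kindlin and ILK complex rose and Tln2 (the muscle talin) fell as deposited, and 3 rose and 2 fell aligned. Of 17 focal adhesion kinases and scaffolds 0 rose as deposited and 7 aligned, while Itgb1bp2 (melusin, a muscle binding partner of Itgb1) fell from 245 ± 22.7 to 122 ± 46.6 FPKM (limma adjusted p = 0.0400; aligned 0.0533, where 0 of the list fell). Of 19 dystroglycan complex genes 0 rose as deposited and Sgca (alpha-sarcoglycan) fell from 161 ± 8.47 to 80.6 ± 3.35 FPKM (adjusted p = 0.0191), while 2 rose and 4 fell aligned. Of 12 surface partners of leukocyte integrins 0 rose and Jam2 fell as deposited, and 2 rose and 1 fell aligned.

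With shRNA against control virus, 33.4% of all genes rose and 1.66% fell as deposited, and 11.9% and 12.2% aligned. Of 16 extracellular ligands 3 rose and 4 fell (1 and 8 aligned). Thbs1 fell by 1.77 on the log2 scale (aligned by 2.21), and Vtn rose by 1.50 (aligned 1.02). Of the basement membrane collagens 0 rose and 3 of 11 fell (8 aligned), among them Col15a1, which fell by 0.94 on the log2 scale (limma adjusted p = 0.0481; aligned it fell by 1.44, adjusted p = 0.01003). The dystroglycan complex had 7 of 19 higher and 0 lower as deposited, a share close to that of all genes, and 1 higher (Sgca) and 1 lower aligned. The talin, kindlin and ILK complex had 3 of 11 higher as deposited and 3 lower aligned, and the focal adhesion genes 2 of 17 higher and 1 lower as deposited and 8 lower aligned, so their direction changed with the scale.

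Control-virus against untreated mutTg hearts compared the control virus with no virus within the mutant genotype, but sex differed as well. All control-virus hearts were female, while untreated replicates 9 and 10 were male and replicate 11 female. Rn45s was 0 in the control-virus libraries and in replicate 11, and 11562 and 8645 FPKM in replicates 9 and 10. An effect of the virus was thus not separated from these differences. By limma 0 of 33 members passed, as deposited or aligned, and 0% of all genes did; at an unadjusted p under 0.05 the members numbered 0 as deposited and 2 aligned, beside 4.41% and 9.98% of all genes. All control-virus libraries were above all untreated ones in 7 members and below in 1 (Lama2), beside 14% and 1.05% of all genes. The shRNA hearts against wtTg hearts compared treated mutants with normal hearts, and by limma 0 of 33 members passed as deposited or aligned, where 0.108% of all genes did as deposited and 0.0847% aligned (0.0308% higher, 0.0539% lower). On either scale 4 members had an unadjusted p under 0.05, beside 15.6% of all genes as deposited and 11.7% aligned. The shRNA libraries were all above the wtTg libraries in 5 members (Itga1, Itga6, Itgav, Lama5, Lamb1) and all below in 0, beside 10.7% and 0.285% of all genes. A p that misses the threshold does not show that levels are the same, and shRNA replicate 8 widens the spread of that group.

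The 10 members under the test minimum were Itga2 and Itga10 (collagen receptors), Itga2b (the platelet subunit), Itgad, Itgb2l, Itgb4 (the hemidesmosome subunit), Itgb8, Lama1, Lama3 and Lamc3. Itgb2l was listed at 0 in every library and Itgad in 4 of 13. Itgb4 reached 1.73 FPKM and Itga2b 1.85 FPKM at most, and no other of the 10 exceeded 1.50 FPKM.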

How the data were processed

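PolyA RNA of 13 hearts was sequenced (100-nucleotide paired reads, per the labels' protocols). The authors deposited FPKM values, 1 column a library; the submitters' processing notes name FastQC 0.11.2, STAR 2.40, Cufflinks 2.2.1, Cuffdiff and build mm9, with no further step given. The 11 small RNA libraries hold no member and were not analysed here. Groups came from the sample labels, and nothing says whether hearts of a group share a litter. The members, the gene lists and the tests were chosen with earlier results of these data known.

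FPKM were tested as log2(FPKM + 1) with limma 3.58.1 (R 4.3.3): 1 fit over the 4 groups, a trended prior variance, the 12980 genes whose mean reached 1 FPKM, and Benjamini-Hochberg adjustment over all of them in each of 6 comparisons, with passing set at 0.05. Folds are on the log2(FPKM + 1) scale, which understates changes of low genes. For the aligned fit each library was divided by its median shift. The FPKM hold no counts, so depth is relative only: steps among 1233 low genes placed 62.3% to 80.7% of ratios within 0.03 log2 of a whole multiple. Values per library are given for members central to heart, leukocyte and basement membrane roles and for any other that passed as deposited; the rest are given by range, and listed genes by smallest p among those that passed. Results of some genes, which the counts include, are not reported here. The script was tested on simulated data. Alternatives were other scalings, filters and pseudocounts, sex as a covariate, the compared groups alone and each library left out.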

Additional observations from a re-analysis of the deposited data

Results flagged for a closer look

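In the shRNA group, 7 members had 1 library far from the other 3 as deposited, and in each it was replicate 8, the highest. Its gap to the next library exceeded the critical share of the group's range (Dixon, 95% level; chance exceeds it in about 1 group in 20). No such count over all genes is given here, so whether members differed from other genes in this way was not tested. Itgbl1 was 148 FPKM in replicate 8 and 10.6, 16.3 and 15.1 FPKM in replicates 5, 6 and 7. Itga9 was 119 FPKM beside 25.4, 36.6 and 30.5 FPKM, and Itga1 was 35.4 FPKM beside 16.4, 16.1 and 18.0 FPKM. The leukocyte subunits Itgb2, Itgam, Itgax and Itgb7 were 23.7, 14.4, 5.06 and 5.70 FPKM in replicate 8. In replicates 5 to 7 Itgb2 was 3.71, 5.87 and 4.96 FPKM, Itgam 2.56, 4.18 and 4.10 FPKM, Itgax 0.219, 0.664 and 0.275 FPKM and Itgb7 0.680, 0.903 and 0.535 FPKM. The same library had the largest scale shift (0.80) and, as deposited, the highest summed leukocyte markers (3974 FPKM), whose part was not tested. Aligned, that sum was 2289 FPKM, below the 2542 FPKM of control-virus replicate 2. Aligned, Itga1 was 20.4 FPKM in replicate 8 beside 11.2 to 17.8 FPKM, a gap no wider than those among the other 3. The other 6 stayed far above on that scale, with Itgbl1 at 85.0 FPKM beside 11.4 to 12.1 FPKM, Itga9 at 68.5 beside 24.3 to 27.5 FPKM, Itgb2 at 13.6 beside 3.97 to 4.09 FPKM, Itgam at 8.28 beside 2.78 to 3.28 FPKM, Itgax at 2.92 beside 0.220 to 0.463 FPKM and Itgb7 at 3.28 beside 0.427 to 0.738 FPKM.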

How the results depend on the processing

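The number of members that passed depended on how libraries were scaled and on single libraries, and except where stated the cause was not tested. For control-virus mutTg against wtTg hearts it was 4 as deposited, 1 with no filter on low values, 17 aligned, 17 with quantile normalization, 17 with equal FPKM totals, 18 with the compared groups alone, 0 with sex as a covariate and 22 aligned without shRNA replicate 8. Leaving out 1 library at a time gave 0 to 15, the 15 without shRNA replicate 8. For untreated mutTg against wtTg hearts it was 4 as deposited, 16 aligned, 16 with quantile normalization, 16 with equal totals, 12 with the compared groups alone, 7 with sex as a covariate and shRNA replicate 8 left out, 21 aligned without that replicate, and 3 to 9 with 1 library left out. For shRNA against control virus it was 8 as deposited, 13 aligned, 14 with equal totals, 2 with the compared groups alone, 4 with sex as a covariate, 22 aligned without replicate 8, and 2 (without mutTg replicate 3) to 16 (without shRNA replicate 8) with 1 library left out. For shRNA against untreated hearts it was 11 as deposited, 17 with quantile normalization, 21 with equal totals, 5 with the compared groups alone, 24 aligned without replicate 8, and 5 (without untreated replicate 10) to 16 with 1 library left out. For shRNA against wtTg hearts it was 0, and 1 aligned without replicate 8. Aligned without that replicate, 19.8% of all genes rose and 19.8% fell for control-virus mutTg against wtTg hearts. The shares were 18.9% and 20.8% for untreated against wtTg hearts and 24.2% and 23.9% for shRNA against control virus. With shRNA against untreated hearts they were 25.4% and 24%, and against wtTg hearts 3.17% and 2.5%. For settings with no such share here or above, whether members passed more often than other genes was not tested.

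Directions that changed belonged to members higher with shRNA. Against control virus, equal totals gave log2 differences of -0.14 for Itga6, -0.14 for Itga7, -0.029 for Lama5 and -0.017 for Nid2. Against untreated hearts, Itga1, Itga7, Lama4 and Lamb2 were -0.087, -0.067, -0.18 and -0.050 aligned, and -0.050, -0.19, -0.24 and -0.20 with quantile normalization. Equal totals gave Itga1 -0.38, Itga6 -0.099, Itga7 -0.38, Lama4 -0.49, Lama5 -0.28, Lamb1 -0.18, Lamb2 -0.36 and Nid2 -0.16. Aligned without replicate 8, Itga1 was -0.21, Lama4 -0.18 and Lamb2 -0.028. Aligned and with any 1 library of the compared groups other than shRNA replicate 8 left out, 4 to 10, 4 to 12, 4 to 6 and 8 to 10 members passed in the first 4 comparisons; that setting was added after seeing the data. Replicates 2 and 3 of the wtTg and control-virus mutTg hearts share a number, and the labels do not say whether they share more. Their deviations correlate at -0.20 and -0.11, where all pairs of these 2 groups ran from -0.20 to 0.17. With so few hearts this cannot show whether equal numbers were paired. With that number as a replicate block 7 members passed. Depth is known only relative to the deepest library, so no interval for low members could be given.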
